A study of Mus musculus with 12 samples.

Results

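Crystallins are the proteins best known for filling the fibre cells of the eye lens. The group described here holds the 9 members Cryaa, Cryab, Cryba1, Cryba2, Cryba4, Crybb1, Crybb2, Crybb3 and Crygs, a given list of gene symbols. All 9 were found, each at 1 Ensembl ID, among the 55487 genes of the table. RNA was sequenced from whole mouse retina in 12 libraries, 3 in each of 4 groups. The groups were 5xFAD mice at 1 month, WT mice at 1 month, 5xFAD mice at 6 months and WT mice at 6 months. The series set retained-intron and transcript profiles of the genotypes side by side at both ages.

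The 5xFAD libraries carry the strain label Tg6799 and the WT libraries the strain label C57BL/6J. As background, 5xFAD is a transgenic model of amyloid deposition, in which neuronal Thy1 promoter sequence drives mutant human transgenes. The deposited table holds mouse genes only, so the transgenes were not checked here. Whether the WT mice were littermates, and how many animals a library holds, is not given in the sources used here. Transgene and strain background therefore cannot be told apart, and p-values measure only the spread between these libraries, which may be technical. Sex was not labelled.

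Alpha-crystallins (Cryaa, Cryab) are small heat shock proteins that hold unfolding proteins in solution. Beta-crystallins (Cryba and Crybb genes) and gamma-crystallins are a separate family of compact structural proteins, and beta subunits join in pairs and larger assemblies. Outside the lens, Cryab is found in retinal glia and pigment epithelium and responds to stress, and several crystallins have been described in injured or ageing retina. Because lens fibres are so rich in crystallin mRNA, these genes also serve as markers of lens tissue in a retina sample.

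Library totals ran from 10928031 to 19552537 expected counts. All 21 retinal cell markers passed the filter on low counts (at 1 month 3 were called higher in 5xFAD, 2 lower and 16 did not pass, where 19.6% of all genes tested were called). CPM is the count scaled to the effective library size (TMM, a trimmed-mean scaling), the unit of all levels below. Errors beside CPM are SDs over 3 libraries. Intervals on counts are exact 95% intervals that cover counting error only.

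The regions ahead of 5 members are shown because Maf factors, which drive lens crystallin genes, bind elements with the core TGCTGA. Capitals mark TGCTGA or its reverse complement. Sequences are RefSeq's on GRCm38.p6, read 5′ to 3′ along the gene, and stop where a GENCODE model of the gene begins. Cryaa is the exception, with only 30 bases given. Its motif lies upstream of the RefSeq start but within the first bases of the GENCODE model Cryaa-206. That model held 73.9% of the Cryaa counts in 5xFAD retinas at 1 month.
Cryaa (chr17:31677811-31677840, plus strand): gagcattccagcTGCTGAcggtgcagcctc
Cryba1 (chr11:77725294-77725543, minus strand): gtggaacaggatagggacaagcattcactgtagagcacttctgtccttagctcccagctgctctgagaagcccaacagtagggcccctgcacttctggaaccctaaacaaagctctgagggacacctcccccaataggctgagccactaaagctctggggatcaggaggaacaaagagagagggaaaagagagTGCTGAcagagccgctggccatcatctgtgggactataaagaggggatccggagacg
Cryba4 (chr5:112252519-112252768, minus strand): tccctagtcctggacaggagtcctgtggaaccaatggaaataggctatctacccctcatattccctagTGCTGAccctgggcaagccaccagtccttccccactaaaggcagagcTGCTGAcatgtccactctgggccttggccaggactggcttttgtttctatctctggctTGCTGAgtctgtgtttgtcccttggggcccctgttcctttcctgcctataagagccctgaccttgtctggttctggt
Crybb1 (chr5:112255570-112255814, plus strand): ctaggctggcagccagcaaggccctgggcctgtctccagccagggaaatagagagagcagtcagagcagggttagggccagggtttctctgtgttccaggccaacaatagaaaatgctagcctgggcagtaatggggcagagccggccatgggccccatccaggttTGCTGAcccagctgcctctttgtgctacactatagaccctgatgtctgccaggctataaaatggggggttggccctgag
Crygs (chr16:22811578-22811660, minus strand): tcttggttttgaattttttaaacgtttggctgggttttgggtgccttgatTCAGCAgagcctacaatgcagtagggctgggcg

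RefSeq entries were found for 8 members, with Cryab unmatched. Within 250 bases upstream of the RefSeq start, 7 of 8 members held TGCTGA on either strand, against 16.1% of 32851 RefSeq promoters. The motif began 57 bases from the start in Cryba1, 67 in Crybb3, 84 in Crybb1, 108 in Cryaa, 149 in Cryba2 and 200 in Crygs. Cryba4 held 3 copies, at 77, 135 and 182 bases, and Crybb2 held none in this window. The heat shock element core, searched as GAANNTTC or TTCNNGAA (each its own reverse complement), was found in 1 of 8 members, against 12.8% of all promoters. That match was TTCNNGAA in Cryba1, 158 bases upstream, and it overlapped no TGCTGA. These matches are letters in a window, not sites shown to be bound.

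At 1 month, transcripts of 5 of the 9 crystallins were present in 5xFAD retinas and at or near 0 in WT retinas. These 5, Cryaa, Cryba1, Cryba4, Crybb2 and Crygs, were higher in each of the 3 5xFAD libraries than in any WT library. For comparison, 13.9% of the 23294 genes with a count in these 6 libraries had 5xFAD wholly above WT, and 13.7% had WT wholly above 5xFAD. The amounts differed widely between the 5xFAD libraries, and replicate 2 held the most of all 9 members. The alphaB gene Cryab was abundant in all 12 libraries and did not pass the test in any of the 5 comparisons.

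**Figure D1:**
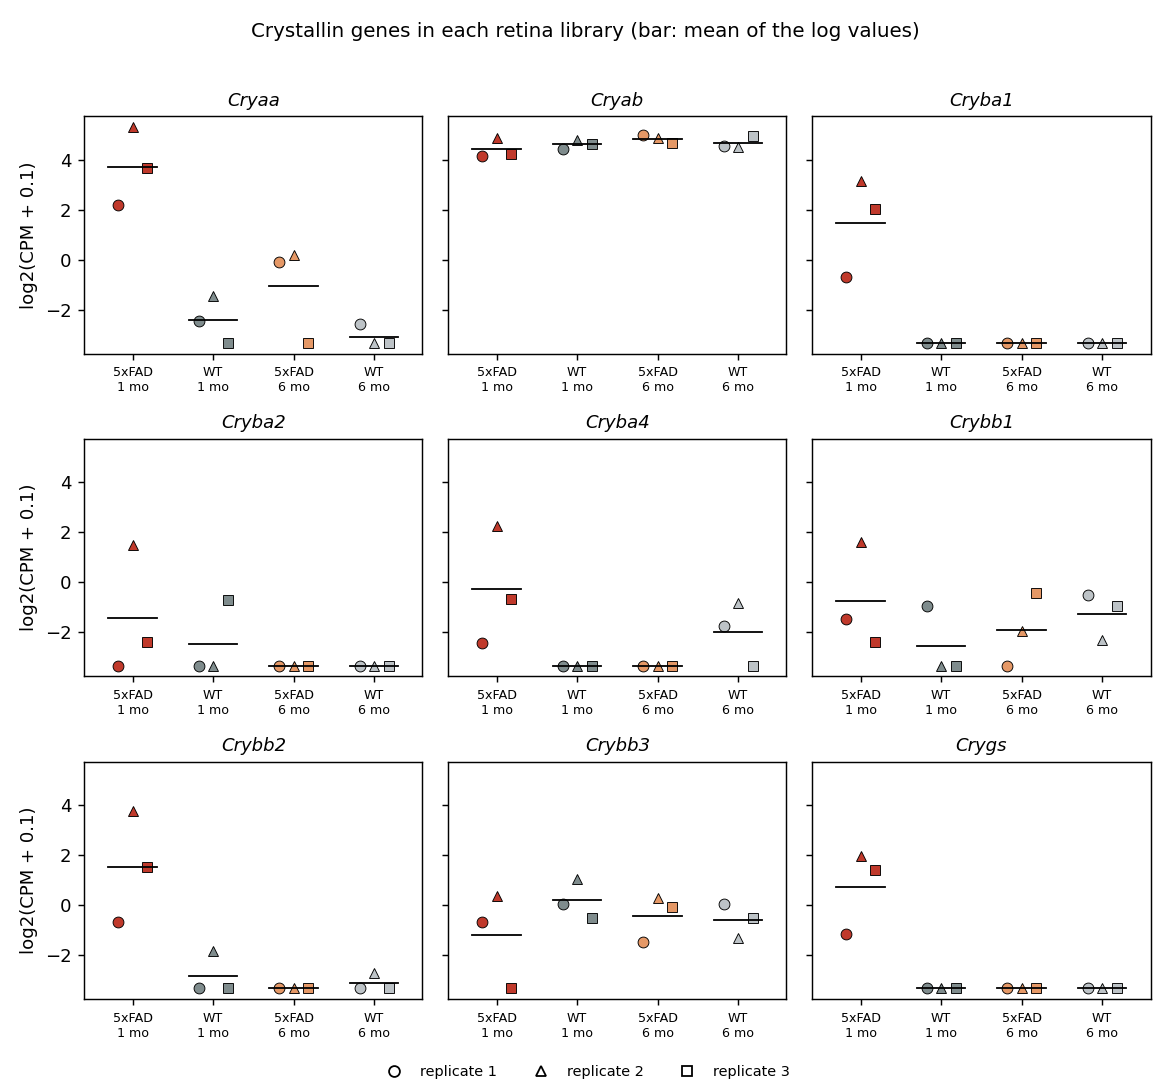
Level of each of the 9 crystallin genes, as log2(CPM + 0.1), in every library; colours and columns are the 4 groups, marker shapes the replicates, and bars the mean of the log values of 3 libraries. Cryaa, Cryba1, Cryba4, Crybb2 and Crygs separate 5xFAD from WT at 1 month, while Cryab stays between 17.5 and 32.0 CPM in all 12 libraries.

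Cryaa (ENSMUSG00000024041, chr17:31677807-31681733, plus strand) encodes alphaA-crystallin, the lens-enriched partner of alphaB. At 1 month it had 52, 427 and 142 expected counts in 5xFAD replicates 1, 2 and 3, against 1, 3 and 0 in WT replicates 1, 2 and 3. Every 5xFAD library thus lay above every WT library, and replicate 2 held 69.5% of the summed 5xFAD level. The levels averaged 18.9 ± 18.2 CPM in 5xFAD and 0.118 ± 0.138 CPM in WT (SD, n = 3 each). The ratio of summed counts was 161 (62.5 to 592), and 74.3 (28.5 to 275) without 5xFAD replicate 2. The edgeR quasi-likelihood log2 fold change was 7.23 ± 1.23 (SE), with a Benjamini-Hochberg adjusted p of 0.00173. At an adjusted p below 0.05, Cryaa was the 1 member called of the 3 that passed the filter on low counts (Cryaa, Cryab and Crybb3). In this comparison 19.6% of the 16233 genes tested were called, and 10.7% of those tested were called higher in 5xFAD. Cryaa passed the filter through its 5xFAD libraries, so its being called is partly fixed by the filter.

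Cryab (ENSMUSG00000032060, chr9:50751325-50756636, plus strand) encodes alphaB-crystallin, the member made in many tissues. It had 202, 317 and 208 counts in 5xFAD retinas at 1 month, against 256, 307 and 285 in WT retinas. The groups overlapped, with replicate 2 the highest of the 5xFAD libraries by 1.66 and 1.56 times over replicates 1 and 3. The log2 fold change was −0.17 ± 0.19 (edgeR adjusted p 0.593), and it was −0.44 (adjusted p 0.153) without 5xFAD replicate 2. At 6 months Cryab had 375, 364 and 353 counts in 5xFAD retinas and 351, 448 and 518 in WT retinas, from libraries of unequal depth. These gave 28.8 ± 3.50 CPM in 5xFAD and 25.8 ± 4.51 CPM in WT, with a log2 fold change of 0.16 ± 0.19 (adjusted p 0.71). Between the ages, Cryab in 5xFAD was 0.40 ± 0.19 higher on the log2 scale at 6 months (adjusted p 0.14). That difference passed only without the 1-month replicate 2, the library rich in other crystallins, at 0.67 (adjusted p 0.0239). Removing a trend on transcript length and GC content turned both genotype differences of Cryab round, to 0.24 at 1 month and −0.02 at 6 months, neither called.

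Cryba1 (ENSMUSG00000000724, chr11:77718615-77725283, minus strand) encodes the betaA3 and betaA1 subunits, which come from 1 mRNA by a choice of start codon. It had 6, 94 and 44 counts in 5xFAD retinas at 1 month and 0 in all 9 other libraries. Against a floor of 3 counts over the WT group, it was at least 49.7-fold higher in 5xFAD, and at least 25.5-fold without replicate 2. The gene lies within Nufip2 with no shared exon, and Nufip2 had 672 to 2538 counts in all 12 libraries.

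Crybb2 (ENSMUSG00000042240, chr5:113058258-113070117, minus strand) encodes betaB2, an abundant basic beta subunit of the lens. It had 6, 146 and 31 counts in 5xFAD retinas at 1 month, against 0, 2 and 0 in WT retinas. The ratio of summed counts was 94.7 (25.8 to 788), and 28.3 (7.31 to 243) without 5xFAD replicate 2. Its neighbour on the same strand, Crybb3, starts 11467 bases away and behaved otherwise in these libraries, as given below.

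Crygs (ENSMUSG00000033501, chr16:22805203-22811577, minus strand) encodes gammaS, the gamma-crystallin of the adult lens. It had 4, 41 and 28 counts in 5xFAD retinas at 1 month and 0 in the other 9 libraries, which is at least 25.2-fold higher than in WT (16.3-fold without replicate 2). Cryba4 (ENSMUSG00000066975, chr5:112246493-112252518, minus strand) encodes the acidic subunit betaA4. It had 1, 51 and 6 counts in 5xFAD and 0 in WT at 1 month, at least 20.0-fold higher (3.57-fold without replicate 2). All 5xFAD libraries lay above WT for both genes, although 1 count in replicate 1 carries that statement for Cryba4.

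The remaining members did not separate the genotypes. Cryba2 (betaA2; ENSMUSG00000006546, chr1:74889934-74893143, minus strand) had 0, 30 and 1 counts in 5xFAD at 1 month, against 0, 0 and 6 in WT. Crybb1 (betaB1; ENSMUSG00000029343, chr5:112255815-112269585, plus strand) had 3, 32 and 1 counts in 5xFAD, against 5, 0 and 0 in WT. For both genes replicate 2 alone stood out. The ratio of summed counts for Crybb1 was 7.45 (2.92 to 24.3) with replicate 2 and 1.23 (0.243 to 5.69) without it. For Cryba2 it was 5.35 (2.20 to 15.7) with replicate 2 and 0.255 (0.00555 to 2.10) without it. Crybb1 and Cryba4 are divergent neighbours whose starts lie 3297 bases apart. Crybb3 (betaB3; ENSMUSG00000029352, chr5:113075839-113081584, minus strand) had 6, 13 and 0 counts in 5xFAD retinas at 1 month, against 11, 22 and 7 in WT retinas. The groups overlapped, and the log2 fold change was −1.02 ± 1.11 (edgeR adjusted p 0.571). Crybb3 was the 1 beta-crystallin with counts in every WT library.

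The 6 members under the filter were also fitted with every gene that had a count, 25667 in all. There Cryba1 (log2 fold change 8.84, adjusted p 7.67e-06), Crybb2 (6.37, 4.53e-06), Crygs (7.86, 0.00508) and Cryba4 (7.54, 0.00951) were called higher in 5xFAD at 1 month. With Cryaa this made 5 of 9 members called, all higher, against 7.4% of all genes called higher in that fit. Cryba1 and Crygs had counts in no other group, so they entered the fit through 5xFAD at 1 month and could only be called higher. The count of 5 is thus partly fixed by which genes were fitted. Fitted fold changes against a group at 0 depend on the prior count and give no size. Cryba2 (adjusted p 0.512) and Crybb1 (0.313) did not pass. Without 5xFAD replicate 2, Crybb2 (adjusted p 0.23), Cryba4 (0.324) and Crygs (0.0799) no longer passed, and DESeq2 did not call Cryba1 (0.157).

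Within the 3 5xFAD libraries at 1 month most of the crystallins went up and down together. Replicate 2 was highest for all 9 members, and 7 of 9 followed the order of replicate 2, then 3, then 1. The shares of all genes highest in replicate 2, or in that order, were not computed. For Cryba2, Cryba4, Crybb1 and Crybb3 the order of replicates 1 and 3 rests on few counts. Crybb1 and Crybb3 had replicate 1 above replicate 3. Summed over the 7 members other than Cryab and Crybb3, replicates 1, 2 and 3 held 6.25, 75.6 and 22.7 CPM (72, 821 and 253 counts). The 3 WT libraries at 1 month held 0.504, 0.449 and 0.514 CPM. Replicate 2 alone took 56.9% to 96.9% of the summed 5xFAD level of each of these 7 genes.

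The mix of crystallins was similar but not the same in the 3 libraries. Cryaa made up 72.2% (60.4 to 82.1) of the counts of the 7 genes in replicate 1, 52.0% (48.5 to 55.5) in replicate 2 and 56.1% (49.8 to 62.3) in replicate 3. The interval of replicate 1 lay above that of replicate 2. Crygs made up 5.56% (1.53 to 13.6), 4.99% (3.61 to 6.71) and 11.1% (7.48 to 15.6) in replicates 1, 2 and 3, so replicate 3 exceeded replicate 2. Crybb1 was 3.9% (2.68 to 5.46) in replicate 2 and 0.395% (0.01 to 2.18) in replicate 3.

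**Figure D2:**
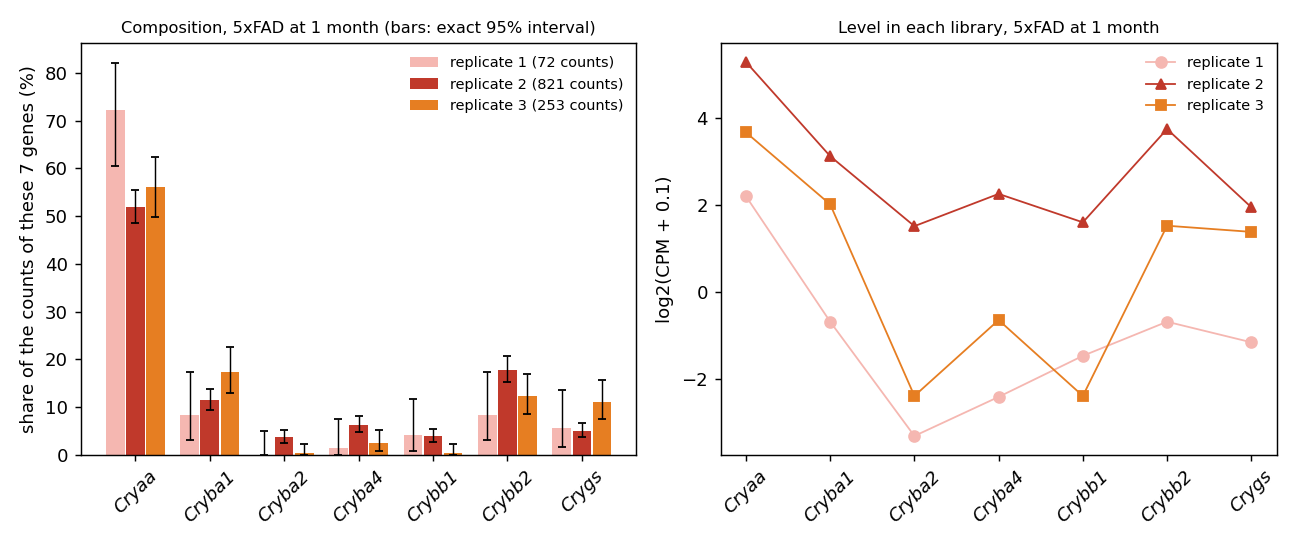
Left: share of the summed counts of 7 crystallin genes in each 5xFAD library at 1 month, in percent, with exact 95% intervals as error bars; right: log2(CPM + 0.1) of the same genes, 1 line per library. Cryaa holds 52.0% to 72.2% of the counts in each library, and the line of replicate 2 lies above both others for all 7 genes.

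Per kilobase of transcript, the mean level in 5xFAD retinas at 1 month was highest for Cryab at 25.2 CPM per kb and next for Cryaa at 16.0. Crybb2 at 7.08 and Cryba1 at 5.62 CPM per kb followed, although Cryba1 was the higher of these in replicates 1 and 3 (0.669 and 5.07, against 0.661 and 3.53 for Crybb2). Then came Crygs at 2.53, Cryba4 at 2.22, Cryba2 at 1.32, Crybb1 at 1.29 and Crybb3 at 0.697. In replicate 2 alone, Cryaa at 33.3 CPM per kb was level with Cryab at 33.7. The spread over libraries was so wide that the ranges of all neighbours in this order overlapped. In WT retinas at 1 month Cryab had 28.3 CPM per kb, Crybb3 1.42, and every other member 0.238 or less.

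At 6 months Cryaa, Cryba1, Cryba2, Cryba4, Crybb1, Crybb2 and Crygs were at 0 or low in both genotypes. Cryba1, Cryba2 and Crygs had 0 counts in all 3 5xFAD and all 3 WT libraries. A count of 0 over a group allows up to 0.0786 CPM in 5xFAD and 0.0586 CPM in WT. Crybb2 had 0, 0 and 0 counts in 5xFAD and 0, 1 and 0 in WT. Cryba4 had 0 in all 5xFAD libraries, against 3, 9 and 0 in WT. Crybb1 had 0, 2 and 9 counts in 5xFAD and 9, 2 and 7 in WT. Crybb3 had 3, 14 and 12 counts in 5xFAD and 14, 6 and 10 in WT, with a log2 fold change of 0.29 ± 1.09 (edgeR adjusted p 0.924). No member's groups were separate at this age, and Cryba1, Cryba2 and Crygs, at 0 in all of these libraries, could not be. The share of all genes with separate groups was not computed at 6 months.

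Cryaa at 6 months had 10, 13 and 0 counts in 5xFAD retinas, against 1, 0 and 0 in WT retinas. The log2 fold change was 4.43 ± 1.74 with an edgeR adjusted p of 0.171. None of the 3 members tested was called, against 6.38% of all genes. Cryaa did pass without 5xFAD replicate 3 (adjusted p 0.0329) and in the fit of all genes with a count (0.00591, where 5.59% of genes were called), so this call turns on 1 library and on the filter.

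The age comparison in 5xFAD mirrors these values, since it uses the same 1-month libraries. Cryaa fell by 4.91 ± 0.99 on the log2 scale at 6 months against 1 month (edgeR adjusted p 0.00446). The ratio of summed counts was 30.8 times lower (20.3 to 48.8), and 14.2 times lower (9.17 to 22.9) without the 1-month replicate 2. It was the 1 member called of 3 tested, against 23.2% of all genes called and 12.4% called lower, and a fit of the 6 5xFAD libraries alone gave a log2 fold change of −4.93 without passing (adjusted p 0.072). As at 1 month, this call is partly fixed by the filter, which Cryaa passed through its 1-month 5xFAD libraries. Against a floor of 3 counts over the 6-month group, Crybb2 was at least 69.5-fold lower at 6 months, Cryba1 54.7-fold, Crygs 27.7-fold, Cryba4 22.0-fold and Cryba2 11.8-fold. Without the 1-month replicate 2 the bounds ran from 3.93-fold for Cryba4 to 28.1-fold for Cryba1, with Crygs and Crybb2 (20.8-fold) between them, and Cryba2, with 1 count left, had none. In the fit of all genes with a count, Cryaa, Cryba1, Cryba4, Crybb2 and Crygs were called lower, against 8.12% of genes. Cryba1 and Crygs entered that fit through the 1-month 5xFAD libraries alone and could only be called lower. In WT, none of the 3 members tested differed with age past the threshold, against 10.5% of all genes called.

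Whether the genotype difference itself differed between the ages was tested as an interaction. None of the 3 members tested passed (Cryaa adjusted p 0.709, Cryab 0.416, Crybb3 0.591), against 25% of all genes. For Cryaa the few WT counts leave this difference with an SE of 4.51 on the log2 scale. In the fit of all genes with a count, Cryba4 (adjusted p 0.0011) and Crybb2 (0.0497) passed, against 16% of genes. Cryba1, Cryba2 and Crygs had 0 counts in both 6-month groups, which left SEs of 15903.35, 6137.36 and 23804.28 on the log2 scale. The test could not decide for these genes, and the remaining members did not pass. For Cryba4 the 6-month counts ran the other way, at 0 in all 5xFAD libraries against 3, 9 and 0 in WT. The genotype difference thus differed between the ages past the threshold for 2 members, in that fit alone. Replicate 2 held 88.2% of the summed 1-month 5xFAD level of Cryba4 and 80.3% of that of Crybb2.

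The transcript table tells which models the counts were assigned to by estimate. Of 39 annotated models of the 9 genes, 24 had any count. Cryaa-206, the 3-exon protein-coding model, held 73.9% of the Cryaa counts in 5xFAD retinas at 1 month. Cryba1-201, Cryba2-201 and Crygs-201 each held all counts of their gene. Cryab-205 and Cryab-201 held 65.9% and 29.3% of the Cryab counts over the 12 libraries, and neither model passed in any comparison.

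Cryaa differed between groups in the class of model as well as in amount. In 5xFAD retinas at 1 month, 581 of 621 counts lay on protein-coding models and 40 on a retained-intron model, or 6.44% (4.64 to 8.67). All of the retained-intron counts of that group were in replicate 2, where they were 9.34% (6.78 to 12.5) of 427. In the other 9 libraries, 27 of 28 counts lay on the retained-intron model, or 96.4% (81.7 to 99.9). The 10 and 13 counts of 5xFAD replicates 1 and 2 at 6 months were wholly of this kind. That model, Cryaa-205 (chr17:31679480-31681505), is 722 bases long, spans no whole intron of Cryaa-206 and has 79 bases inside its introns. The library kit does not mark strand, and 157 bases of Cryaa-205 overlap exons of the antisense gene AC090881.2, which was assigned 0 counts in all 12 libraries. Reads from the antisense strand cannot be told apart from Cryaa here.

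Of the transcripts of the 9 genes, Cryaa-206, Crybb3-202, Cryab-201 and Cryab-205 were tested, and 1 passed, in 1 comparison. The share of all transcripts called was not computed, so that 1 has no background beside it. Cryaa-206 was called lower in 5xFAD at 6 months than at 1 month (edgeR adjusted p 0.0336 over 45326 transcripts), and its adjusted p for 5xFAD against WT at 1 month was 0.0504. Its counts were 52, 283.7 and 123.3 in 5xFAD at 1 month, 1 in WT replicate 1 at 1 month and 0 in the other 8 libraries, so it entered the test only through the group where it was high. The call was lost when any 1 of the 3 5xFAD libraries at 1 month, or WT replicate 1 at 1 month, was left out. Crybb3 also had retained-intron counts outside 5xFAD at 1 month, 28.5 of 99 (28.8%) in the other 9 libraries against 0 of 19 in the 3 5xFAD libraries at 1 month. Cryab had 34.4 of 3257.1 (1.06%) in the other 9 libraries, 31.9 of them in WT replicate 2 at 1 month.

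**Figure D3:**
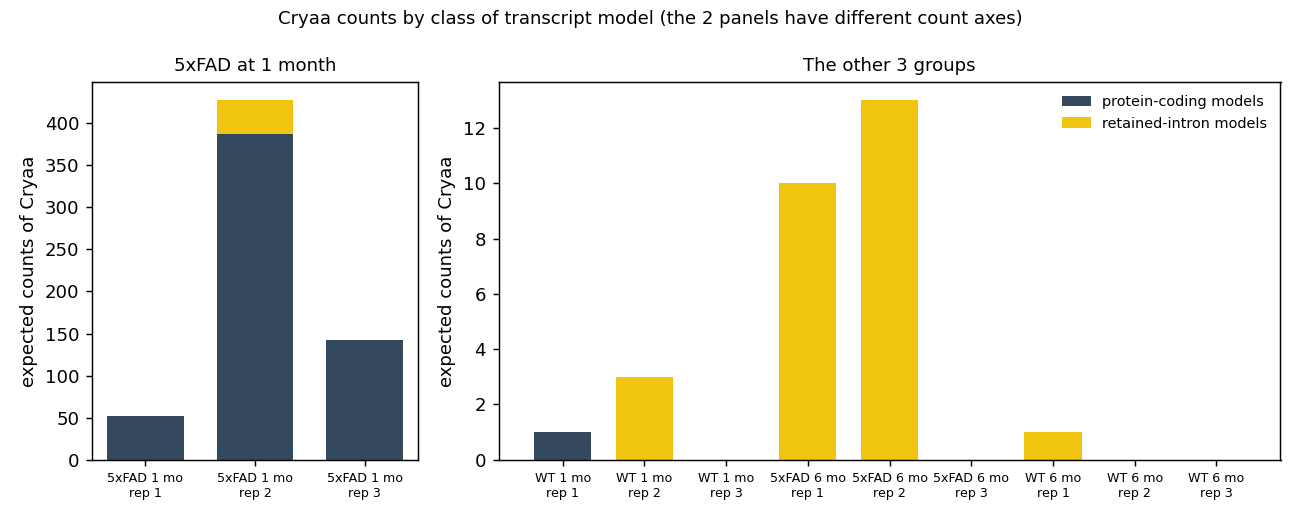
Expected counts of Cryaa in each library, stacked by protein-coding (dark) and retained-intron (yellow) transcript models; the left panel shows 5xFAD at 1 month and the right panel the other 9 libraries on a smaller count axis. Coding models dominate on the left, while 27 of the 28 counts on the right are on a retained-intron model.

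Other lens genes were measured beside the crystallins, since whole retina can bring lens tissue with it. The gamma-crystallins A to F, fibre-cell genes that lie in a cluster of close copies, summed to 0.521, 7.27 and 1.79 CPM in 5xFAD replicates 1, 2 and 3 at 1 month. WT retinas at that age held 0.168, 0.719 and 0 CPM in replicates 1, 2 and 3, so the groups overlapped. Replicate 2 was the highest 5xFAD library for 4 of 6 of these genes, namely Crygb (26.9 counts), Crygc (20.1), Cryge (19) and Crygd (13), while Crygf was at 0 in all 12 libraries. Counts that are not whole show reads shared among these copies, so single gamma genes are uncertain.

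Of the lens genes that encode no crystallin, Hsf4 had counts in every library and the other 12 together held at most 2.76 CPM in any. Among the 13 on the list, Lim2, Lctl, Dnase2b, Birc7 and Foxe3 had no count in any library, and Foxe3 is the factor of lens epithelium. Mip, which encodes the main water channel of lens fibres, had 7 counts in 5xFAD replicate 2 at 1 month and 0 in the other 11 libraries. Bfsp1, a beaded-filament gene of lens fibres, had 1, 10 and 13 counts in 5xFAD retinas at 1 month and 2, 4 and 0 in WT retinas. Other genes of the list did not share this pattern. Bfsp2 had 0, 6 and 2 counts in 5xFAD at 1 month and 3, 5 and 6 in WT. Lgsn had 1, 4 and 4 in 5xFAD and 7, 0 and 0 in WT. Gja3 had 0, 0 and 3 counts in 5xFAD and Grifin 0, 3 and 0, with both at 0 in WT at 1 month. Hsf4, which the retina also expresses, was the 1 gene of the list tested and did not pass at 1 month (edgeR adjusted p 0.383). Without Hsf4, the list summed to 0.174, 2.76 and 1.97 CPM in 5xFAD at 1 month, against 1.01, 0.809 and 0.514 CPM in WT. These sums followed the order of the crystallins within 5xFAD (replicate 2, then 3, then 1), with replicate 1 below all 3 WT libraries. The part of lens tissue in the crystallin difference was not tested. In bulk RNA, fewer cells of a type and less RNA per cell cannot be told apart.

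**Figure D4:**
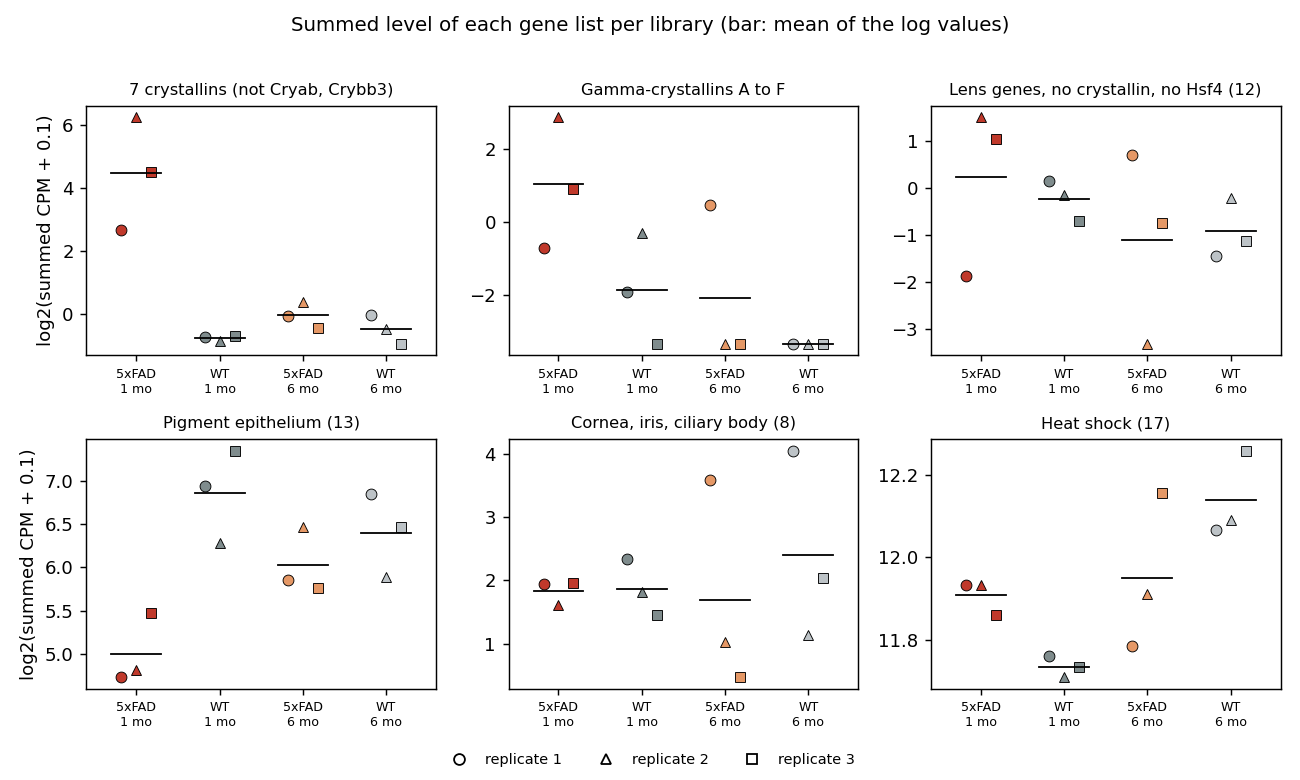
Summed CPM of 6 gene lists in each library, as log2(CPM + 0.1), each panel on its own scale; columns are the 4 groups, marker shapes the replicates and bars the mean of the log values. The sum of the 7 crystallins other than Cryab and Crybb3 separates 5xFAD from WT at 1 month upward. The pigment epithelium sum separates them downward, and the lens list without crystallins and Hsf4 overlaps.

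Markers of the pigment epithelium, the tissue behind the retina, ran opposite to the sum of the 7 crystallins other than Cryab and Crybb3 at 1 month. Their 13 genes summed to 26.5, 28.0 and 44.4 CPM in 5xFAD libraries, against 123, 77.9 and 163 CPM in WT libraries, with no overlap. Of 10 tested, 6 fell, none rose and 4 did not pass, against 8.91% of all genes called lower. The 10 had a median log2 fold change of −1.74, against −0.045 over all genes tested. Rpe65, the visual-cycle isomerase, had 12, 11 and 19 counts in 5xFAD and 126, 46 and 123 in WT (log2 fold change −2.74 ± 0.46, edgeR adjusted p 0.000202). The part of this difference in the crystallin values was not tested. Cornea, iris and ciliary body genes overlapped, at 2.94 to 3.77 CPM in 5xFAD and 2.65 to 4.96 CPM in WT, with the corneal gene Kera at 0 in all libraries.

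Stress genes were measured beside the crystallins because the alpha-crystallins are small heat shock proteins. Of 14 heat shock genes tested at 1 month, 1 rose, 1 fell and 12 did not pass, against 19.6% of all genes called. Hspa1a, the inducible chaperone, rose by 0.41 ± 0.12 on the log2 scale (edgeR adjusted p 0.0169), and Hspb6, a small heat shock gene related to the alpha-crystallins, fell by 0.52 ± 0.14 (adjusted p 0.0114). The 17 heat shock genes together summed to 3910, 3910 and 3720 CPM in 5xFAD and 3470, 3350 and 3410 CPM in WT at 1 month. The sum was higher in all 3 5xFAD libraries, as were Hspa1a, Hspa8, Hsph1, Hsp90aa1 and Hsp90ab1 singly, while Hspb6 was lower in all 3. The groups of the other heat shock genes on the list overlapped. Shares of all genes with separate groups at 1 month are given above for comparison. By edgeR, Hspa8 (adjusted p 0.108), Hsph1 (0.187), Hsp90aa1 (0.152) and Hsp90ab1 (0.253) did not pass. Within 5xFAD the sum was the same to 3 figures in replicates 1 and 2. Its largest parts in replicates 1, 2 and 3 were Hsp90aa1 (1820, 1730 and 1620 CPM) and Hspa8 (1050, 1030 and 982 CPM). The part of stress in the crystallin values was not tested. At 6 months 3 of the 14 heat shock genes tested fell, none rose and 11 did not pass, against 6.38% of all genes called. Hspa1a was among them, lower by 0.41 ± 0.12 (edgeR adjusted p 0.0345). Hspb2, the head-to-head neighbour whose exons overlap those of 1 minor Cryab model, had 0 to 8 counts per library.

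Of 15 glial stress genes tested at 1 month, 1 rose, 3 fell and 11 did not pass, again against 19.6% of all genes. Ceruloplasmin (Cp) rose by 0.58 ± 0.13 (edgeR adjusted p 0.00196), while the metallothionein genes Mt1 and Mt2 fell by 1.00 ± 0.20 (adjusted p 0.00119) and 1.27 ± 0.29 (adjusted p 0.00321). Among 8 tested transcription factor genes shared by lens and retina, 1 passed at 1 month, against 19.6% of all genes. It was Prox1, 0.77 ± 0.12 higher in 5xFAD on the log2 scale (adjusted p 0.00012). Prox1 drives lens fibre genes and is also made by horizontal and other inner retinal neurons. Unlike the crystallins, its counts were even, at 2411, 2685 and 2485 in 5xFAD and 1506, 1322 and 1794 in WT.

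Relations between members and other-tissue sums could be computed for Cryab and Crybb3 alone, since the other 7 genes were at or under 3 counts in at least 6 libraries and fell into separate clusters. Of 6 relations, none passed after Benjamini-Hochberg adjustment. The closest was Cryab with the lens list, mostly Hsf4, at Pearson's r = 0.66 (permutation p 0.015, adjusted 0.09) and Spearman's rho = 0.64 (p 0.0281, adjusted 0.169) over 12 libraries. It was r = 0.40 without the 2 libraries farthest from the median, replicate 1 of 5xFAD at 1 and at 6 months, and so rests on them.

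The genes whose log2 CPM ran most like a member over the 12 libraries are given as a description, among protein-coding genes that passed the low-count filter and are not among the 9. Crystallins under the filter, the gamma-crystallins A to F among them, could therefore not appear. For Cryaa they were Brinp1, Wwc2, Clstn1, Ganab and Agpat3, with Pearson's r from 0.893 to 0.963. For Crybb2 they were Vps8, Nat8l, Ipp, Ncam1 and Dpysl5, with r from 0.889 to 0.965. Both members are near 0 in the 9 libraries other than 5xFAD at 1 month, so these values rest mostly on that group. Brinp1, for example, had 25.95, 30.46 and 27.28 CPM there and 18.66 to 23.62 CPM elsewhere. For Cryab they were Cdt1, Enkd1, Htra2, Gpatch4 and Rnf220, with r from 0.884 to 0.942.

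Of 15 other genes with crystallin names, 7 were tested, and 1 rose and 1 fell in 5xFAD at 1 month, where 19.6% of all genes were called. Crybg3, whose protein carries beta/gamma-crystallin folds, had 44.2 ± 5.51 CPM in 5xFAD and 30.3 ± 1.98 CPM in WT (SD, n = 3 each; log2 fold change 0.55 ± 0.15, edgeR adjusted p 0.0134). Crym, or mu-crystallin, is a thyroid hormone-binding enzyme named for its abundance in marsupial lens. It had 38.1 ± 1.41 CPM in 5xFAD and 56.6 ± 6.90 CPM in WT (log2 fold change −0.57 ± 0.14, adjusted p 0.0062). Unlike the lens-type members, both had even values across replicates. At 6 months none of the 7 passed, against 6.38% of all genes called.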

How the data were processed

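Libraries were made with an unstranded poly-A kit, per the labels' protocols. GRCm38.p6, RSEM 1.3.3, Trim Galore 0.6.6, DESeq2 1.32.0 and STAR 2.7.1a are named, with no order, per the submitters' processing notes. The gene annotation is not given in the sources used here. The authors deposited expected counts for genes and for transcripts, and these were rounded for tests. GENCODE M21 named 55141 of 55487 genes and 141374 of 142699 transcripts. The 9 members and all gene lists were chosen with earlier results of these data known.

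The fit was edgeR 4.0.16 (R 4.3.3) quasi-likelihood with TMM scaling over all 12 libraries, with filterByExpr by group (16233 genes) and 8 residual degrees of freedom. P-values were Benjamini-Hochberg adjusted over all genes and called below 0.05. CPM use effective library sizes, and logs of CPM in figures and relations add 0.1. Standard errors were taken from the fold change and its F statistic. Alternatives were other scalings and filters, DESeq2 1.42.0, a replicate block, a fit of 6 libraries, a length and GC trend, and leaving out each library. On simulated data for 5xFAD against WT at 1 month, with 15859 genes tested, 36 of 67 2-fold, 55 of 67 4-fold and 55 of 66 8-fold changes were recovered, with 8 false calls. Libraries of a group differed by chi-square per degree of freedom of 4.13 to 28.44, so none was a copy.

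Named genes were all members, in each list the genes at 0 and up to 4 with the smallest p over 5 comparisons, called genes with crystallin names, the 5 genes most like Cryaa, Crybb2 and Cryab by Pearson's r, and overlapping neighbours. Mip, Bfsp1, Bfsp2, Lgsn, Gja3, Grifin and Nufip2 were named after their values were seen. Some listed genes are not reported here. Relations used 100000 permutations, two-sided.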

Additional observations from a re-analysis of the deposited data

Results flagged for a closer look

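By edgeR's interaction test, the genotype difference differed between the ages for 3 of the 7 tested crystallin-named genes outside the members. Of all 16233 genes tested, 25% passed, and 7 genes are too few to compare with that share. For Crybg3 the difference at 6 months minus that at 1 month was −0.84 ± 0.21 on the log2 scale (adjusted p 0.0056). Crybg3 had 38.1 ± 2.91 CPM in 5xFAD and 46.7 ± 9.88 CPM in WT at 6 months. For Crym the same quantity was 0.71 ± 0.20 (adjusted p 0.0115), and Crym fell with age in WT by 1.03 ± 0.14 (adjusted p 9.06e-05). For Cryzl1, a quinone oxidoreductase relative, it was 0.60 ± 0.16 (adjusted p 0.00942). Cryzl1 had 46.7 ± 5.12 CPM in 5xFAD and 57.5 ± 3.24 CPM in WT at 1 month, and 60.9 ± 2.60 CPM in 5xFAD and 49.5 ± 4.12 CPM in WT at 6 months. Its groups were separate in opposite directions at the 2 ages, although neither genotype difference passed on its own (adjusted p 0.0758 and 0.127). SDs are over 3 libraries.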

How the results depend on the processing

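Cryaa kept its direction and its call at 1 month under all alternatives run, with leave-one-out log2 fold changes of 6.11 to 8.50. With no filter on low counts, 5 members were called at 1 month, 1 at 6 months, 5 in the 5xFAD age comparison and 2 in the interaction. A fit of 6 libraries called 0 members in the 5xFAD age comparison and 502 genes (1035 in all 12) at 6 months. Removing the length and GC trend left 1842 genes (of 3178) called at 1 month and 2315 (of 3772) in the 5xFAD age comparison; it turned Cryab to 0.24 and −0.02 at 1 and 6 months and −0.27 in the interaction, and the Crybb3 age difference in 5xFAD to 0.
Leaving out 1 library at a time gave 1911 to 3534 genes called at 1 month, 226 to 1640 at 6 months and 691 to 2041 with age in WT. It gave 0 to 1 members called at 6 months (1 without 5xFAD replicate 3) and 1 to 2 in the 5xFAD age comparison (2 without the 1-month replicate 2). It gave 0 to 1 transcripts of the members called. Fold changes that changed sign were none of them called. Cryab with age in WT ranged from −0.08 to 0.17, Cryba2 at 1 month from −1.71 to 6.67, Crybb3 at 6 months from −0.12 to 0.72 and Crybb3 with age in 5xFAD from −0.19 to 1.48. The cause was not tested for any of these.

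Replicate numbers are shared across groups. Within an age, deviations of same-numbered 5xFAD and WT libraries correlated at −0.09 to 0.04, which gives no sign that the numbers pair libraries. Correlations across ages were not computed, and a shared batch was not tested. With a replicate block, 2912 genes were called at 1 month and 833 at 6 months, the same members were called, and 0 transcripts (1 without the block). Most members lie under 10 CPM, so depth limits them. The libraries of 5xFAD at 1 month are few and uneven, and 1 of them sets the size of most crystallin values.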
